A study of Mus musculus with 6 samples.

Results

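The genes of Wnt signalling were followed in RNA from macrophages sorted out of 2 fat tissues of the mouse abdomen, the omentum (OM) and the mesentery (MY). They were taken by gene symbol: the Wnt ligands (19 genes), the R-spondins (4), the frizzled receptors (10), the co-receptors Lrp5 and Lrp6, the secreted frizzled-related proteins (4), the dickkopf proteins (4), and Axin1 and Axin2. This gave 45 of the 23946 genes of the deposited table. The mice were female C57BL/6 animals of 6 to 8 weeks. Naive mice, called 0h here, were sampled without tumour cells. The others had ID8 cells, a mouse ovarian cancer line, in the peritoneal cavity since 24 h or 7 d. Omenta of 9 mice were handled in tubes of 3. The paper states 3 omenta behind each data point and an n of 3 for the sequencing. There is no word in the sources used here on how tubes map to time points or how the mesentery was pooled. Cells were sorted for CD45, CD11b and the macrophage antigen encoded by Emr1. Each of the 6 conditions (OM 0h, OM 24h, OM 7d, MY 0h, MY 24h and MY 7d) had 1 library, and where 3 values of a tissue are given without labels they follow the order 0h, 24h, 7d. The values below thus lack replicates and carry no test, and a difference describes the 2 libraries compared. The effect of ID8 cells and the effect of the injection itself cannot be told apart in these groups.

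Wnt proteins are lipid-modified secreted ligands that act over short distances. They bind a frizzled receptor together with a co-receptor, Lrp5 or Lrp6 in the beta-catenin branch, and so stop a complex built on Axin from destroying beta-catenin, which then works with TCF and LEF factors in the nucleus. R-spondins keep frizzled receptors on the cell surface, whereas secreted frizzled-related proteins bind Wnt ligands, and dickkopf proteins such as Dkk1 and Dkk2 bind the Lrp co-receptors. In serous membranes, mesothelial cells and the fibroblasts beneath them are known sources of Wnt ligands and R-spondin.

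Values are FPKM, fragments per kilobase of transcript scaled to the aligned fragments of the library. Differences are on the log2(FPKM + 1) scale, where 1 unit is a 2-fold difference and low genes are understated. The term expressed is used for the 13064 genes that reached 1 FPKM somewhere among the 6 libraries. Read counts are not part of the table, so the depth behind a value is unknown. The commonest ratio of low values placed the libraries at 0.857 (OM 0h) to 1.49 (OM 7d) times the depth of MY 0h, so low genes rest on the most reads in OM 7d. An exact 0 can be a failed estimate: Cd74, a gene of antigen-presenting cells, was listed at 0 in OM 24h and at 11323 or more in the other 5 libraries. A gene at 0 is therefore called listed at 0. The genes of the sort markers were measured in every library. Ptprc (CD45) lay between 105.8 and 208.3 FPKM, Itgam (CD11b) between 27.8 and 150.9 and Emr1 between 20.5 and 135.0. Genes of mesothelial cells and fibroblasts, which lack the CD45 of the sort, were measured too. The summed FPKM of 10 mesothelial markers was 106.0 in OM 0h, 1058 in OM 24h and 1083 in OM 7d, and at most 2.07 in the mesenteric libraries. That of 9 fibroblast markers was 368.7, 227.2 and 1237 in the omentum, and at most 3.89 in the mesentery. The mesothelial list holds Krt8 and Krt18, the keratin genes whose proteins the paper stained to detect ID8 cells. For these genes, mesothelial and ID8 RNA cannot be told apart after injection. In a bulk library, fewer cells of a type and less RNA per cell cannot be told apart.

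Of the 45 Wnt genes, 22 were expressed. They were 9 ligands, 5 frizzled receptors, 2 each of the secreted frizzled-related, dickkopf and Axin genes, and Rspo1 and Lrp6. OM 7d held the highest value of 16 of the 22, against 16.1% of all expressed genes, among them Wnt4, Wnt6, Wnt11, Rspo1, Fzd1 and Dkk3. OM 24h had 3 of the highest values (Wnt10a, Sfrp4 and Lrp6), and OM 0h, MY 24h and MY 7d had 1 each (Wnt2, Dkk2 and Axin1). Of the 45 genes, 14, 16 and 21 reached 1 FPKM in the omental libraries (0h, 24h and 7d), and 6, 8 and 7 did in the mesenteric ones. Every omental value lay above every mesenteric value for 14 of the 22, against 16.7% of all expressed genes. The order OM 0h, OM 24h, OM 7d was a rising one for 11 of the 22, against 15.8%. Of the 22, 12 were below 1 FPKM in every mesenteric library and 1 in every omental one. Those genes counted as expressed through 1 tissue alone, and Fzd2 and Wnt2b through OM 7d alone. The counts of this paragraph are therefore a description.

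**Figure D1:**
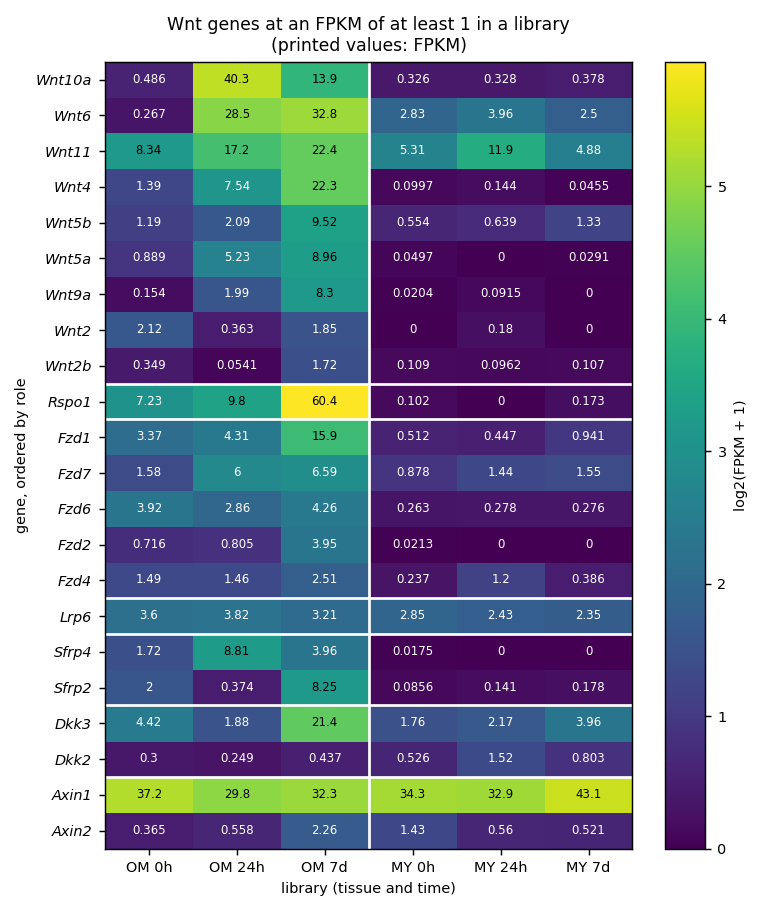
Heat map of the 22 expressed Wnt genes (rows, grouped by role with white lines between groups) in the 6 libraries (columns). Colour is log2(FPKM + 1) and the printed numbers are FPKM. The brightest cell is Rspo1 in OM 7d (60.4), and most ligand and receptor rows are dark in the 3 mesenteric columns.

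Between the naive libraries, 3 of the frizzled receptors, Rspo1, and the antagonists Sfrp2 and Sfrp4 were among the genes higher in the omentum. In all, 8 Wnt genes had a value at least 2-fold that of MY 0h (Fzd1, Fzd4, Fzd6, Rspo1, Sfrp2, Sfrp4, Wnt2 and Wnt4), and 1 (Wnt6) was lower. Of all expressed genes, 8.18% were higher and 8.05% lower by this measure. The largest gap was that of Rspo1 (2.90), followed by Fzd6 (1.96), Wnt2 (1.64) and Fzd1 (1.53). Wnt6 differed by -1.60. The mesothelial and fibroblast marker sums were also higher in OM 0h than in MY 0h (106.0 against 1.14 and 368.7 against 2.48). Their part in these differences was not tested.

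The injected omental libraries were compared with the naive one. In OM 24h against OM 0h, 7 Wnt genes were at least 2-fold higher (Wnt4, Wnt5a, Wnt6, Wnt9a, Wnt10a, Fzd7 and Sfrp4) and 2 were lower (Wnt2 and Sfrp2), against 11.9% and 6.45% of all expressed genes. In OM 7d against OM 0h, 15 were higher and 0 lower, against 11.0% and 1.96% of all expressed genes. The 15 were Wnt2b, Wnt4, Wnt5a, Wnt5b, Wnt6, Wnt9a, Wnt10a, Wnt11, Rspo1, Fzd1, Fzd2, Fzd7, Sfrp2, Dkk3 and Axin2. A gene that is expressed because of its OM 7d value had to be higher there, so this count over 22 genes is a description. A gene below 1 FPKM in OM 0h could also not be 2-fold lower at either time. Over all 45 genes, the median difference from OM 0h was 0.00 at 24 h and 0.29 at 7 d, beside 0.00 over all genes of the table at both times.

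The same comparisons were made in the mesentery. In MY 24h against MY 0h, 1 Wnt gene (Wnt11) was at least 2-fold higher and 0 were lower, against 2.80% and 1.52% of all expressed genes. In MY 7d against MY 0h the counts were 0 and 0, against 0.498% and 2.29%. These comparisons share the naive library of their tissue, so the differences at 24 h and 7 d are not independent of each other.

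The tissues were also compared at each time after injection. In OM 24h against MY 24h, 10 Wnt genes were at least 2-fold higher and 1 (Dkk2) was lower, against 13.9% and 10.2% of all expressed genes. In OM 7d against MY 7d, 19 were higher and 0 lower, against 14.1% and 4.99%. The 3 expressed Wnt genes that stayed within 2-fold there were Axin1, Lrp6 and Dkk2. Of the 22 expressed genes, 12 were below 1 FPKM in every mesenteric library and 1 (Dkk2) in every omental one, so a 2-fold difference of any of these could go in 1 direction, and the counts are a description. Over all 45 genes the median tissue difference was 0.16 at 0h, 0.12 at 24 h and 0.51 at 7 d. With a pseudocount of 0.1 the number at least 2-fold apart was 15 at 0h, 13 at 24 h and 19 at 7 d. Set against each other across time, the lowest omental value was at least 2-fold above the highest mesenteric one for 5 genes (Fzd1, Fzd6, Rspo1, Sfrp4 and Wnt4). The reverse held for 0, against 2.73% and 2.12% of all expressed genes.

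**Figure D2:**
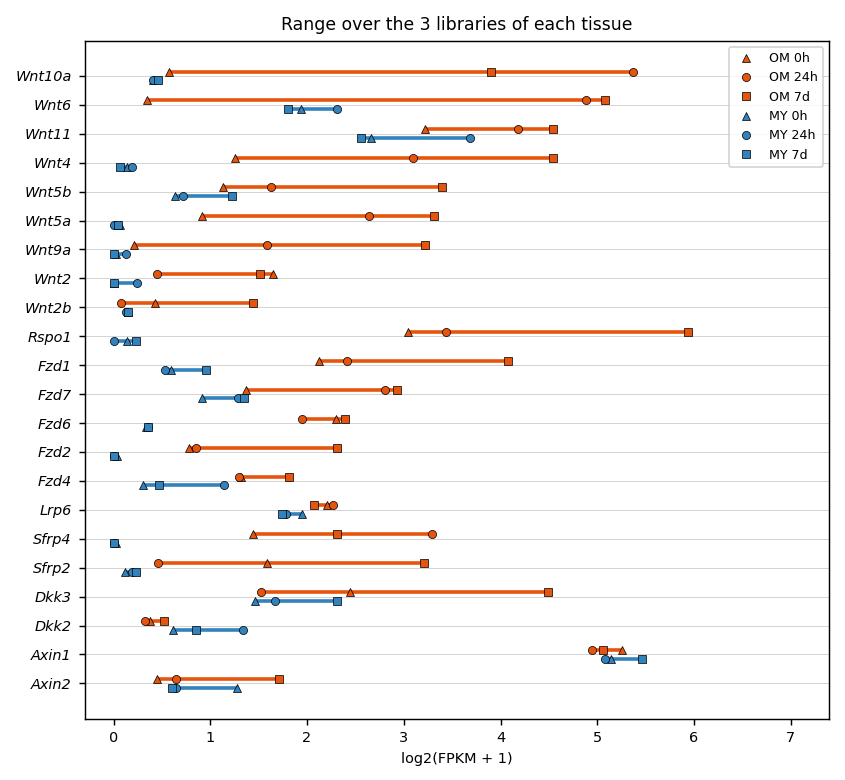
Level of each of the 22 expressed Wnt genes, in log2(FPKM + 1), in the omental libraries (orange) and the mesenteric libraries (blue). Triangles are 0h, circles 24h and squares 7d, and each bar spans the 3 libraries of a tissue. The bars of Rspo1, Wnt4, Fzd1, Fzd6 and Sfrp4 are at least 1 unit apart, and those of Axin1 and Dkk3 overlap.

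Wnt6 and Wnt10a, ligands that are adjacent in the genome, differed most from the naive library of all expressed Wnt genes. Wnt6 is known from kidney epithelium, and Wnt10a from teeth and skin appendages. The FPKM of Wnt10a was 0.486 in OM 0h, 40.3 in OM 24h and 13.9 in OM 7d, and 0.326, 0.328 and 0.378 in the mesentery. Wnt6 stood at 0.267, 28.5 and 32.8 in the omentum, and at 2.83, 3.96 and 2.496 in the mesenteric libraries in the same order. The naive omental library was thus low for both genes, with the 2 injected omental libraries far above every other. For Wnt6 the naive omental library was also below all 3 mesenteric ones. Against OM 0h, Wnt10a differed by 4.80 at 24 h and by 3.33 at 7 d, and Wnt6 by 4.54 and 4.74. As ratios of FPKM these are 82.9 and 28.6 for Wnt10a and 106.8 and 123.0 for Wnt6, with a denominator below 0.5 FPKM in each case.

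The 2 genes had different time courses. From OM 24h to OM 7d, Wnt10a differed by -1.47, whereas Wnt6 differed by 0.20. Both lie on the plus strand of chromosome 1, Wnt6 from 74818466 to 74831893 and Wnt10a from 74838090 to 74850753 in the NCBIM37 assembly (mm9), with 6196 bases and 0 coding genes between them. Neither is overlapped by another annotated gene. There were 3 further ligand pairs within 100 kb, and in none of them were both genes expressed. Wnt9a is 16.2 kb from Wnt3a on chromosome 11, and Wnt3a was listed at 0 in the 3 omental libraries. Wnt3 and Wnt9b (chromosome 11) and Wnt1 and Wnt10b (chromosome 15) stayed below 1 FPKM throughout.

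Mesothelial markers, among them keratin genes whose proteins also mark ID8 cells, were higher along with these ligands at 24 h in the omentum. All 10 of the mesothelial markers in the table were higher in OM 24h than in OM 0h, with Krt19 (3.95) and Krt18 (3.78) the highest. Of the 10, 9 were at least 2-fold higher, against 11.9% of all expressed genes. On this scale both Wnt6 and Wnt10a differed more than any of the 10 markers at 24 h. With a pseudocount of 5 in place of 1 that order turned, to 2.67 for Wnt6, 3.04 for Wnt10a and 3.76 for Krt19. From OM 24h to OM 7d, Wnt10a differed by -1.47 and Wnt6 by 0.20. Over that step 7 of the 10 markers were higher, and Krt8, Krt18 and Krt19 were lower. The mesenteric libraries had Wnt6 at 2.496 FPKM or more with a mesothelial marker sum of at most 2.07. There Bnc1 was listed at 0 in all 3 libraries and Wt1 in 2. In OM 0h, Wnt6 was at 0.267 with a mesothelial marker sum of 106.0. The part of mesothelial or ID8 RNA in the injected omental values was not tested.

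Wnt4, Wnt5a and Wnt9a, ligands best known from non-canonical signalling and from organ and joint development, formed an ordered series in the omentum. Wnt4 stood at 1.39, 7.54 and 22.3 FPKM in the omentum, and between 0.0455 and 0.144 in the mesentery. Wnt5a stood at 0.889, 5.23 and 8.96 in the same omental libraries, and was at most 0.0497 in the mesentery. Wnt9a stood at 0.154, 1.99 and 8.30, and was at most 0.0915 in the mesentery. For each of the 3 genes the naive omental library was the lowest of its tissue, OM 7d the highest, and every omental value was above every mesenteric one. The differences from OM 0h were 1.84 and 3.29 for Wnt4, 1.72 and 2.398 for Wnt5a and 1.37 and 3.01 for Wnt9a, at 24 h and 7 d. Of the mesothelial markers, 7 of 10 had the same order of the omental libraries. None of the 9 fibroblast markers did.

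Wnt11 was the 1 ligand above 1 FPKM in every library. It acts mainly through non-canonical signalling and is known for roles in heart and kidney development. Its FPKM was 8.34, 17.2 and 22.4 in the omentum, and 5.31, 11.9 and 4.88 in the mesentery. The ranges of the tissues overlap, since MY 24h was above OM 0h. At 24 h the difference from the naive library was close to 2-fold in both tissues, 0.96 in the omentum and 1.03 in the mesentery. At 7 d the values were 1.32 and -0.10. Wnt11 held 54.0% of the summed ligand FPKM of OM 0h and between 51.8% and 67.6% of that of the mesenteric libraries, but the leading ligand was Wnt10a in OM 24h (38.7%) and Wnt6 in OM 7d (26.6%). Wnt11 was highest at 7 d in the omentum and at 24 h in the mesentery. The macrophage marker sum was 7677, 27094 and 7262 in the omental libraries and 3257, 4233 and 2969 in the mesenteric ones. Most of it was Lyz2 (24780 in OM 24h and 3578 in MY 24h). At 24 h, 8 of 9 macrophage markers were at least 2-fold above the naive library in the omentum (median 1.81). In the mesentery 5 of 9 were (median 1.32), against 11.9% and 2.80% of all expressed genes. At 7 d the counts were 0 and 0, against 11.0% and 0.498%, and Mrc1 was lower in the omentum. The part of macrophage content in the Wnt11 values was not tested.

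Wnt5b, a close relative of Wnt5a, was at 1.19, 2.09 and 9.52 FPKM in the omentum, and at 0.554, 0.639 and 1.33 in the mesentery. MY 7d was above OM 0h, and the remaining omental values were above all mesenteric ones. Its value carries a limit, since Fbxl14, a coding gene on the opposite strand that overlaps the Wnt5b locus, was at 12.7 to 22.4 FPKM. The sources used here do not state whether the libraries kept strand, and without it the reads of the 2 genes cannot be told apart where they overlap.

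Wnt2 and Wnt2b followed another course, with a low value at 24 h. Both are stromal ligands known from lung and other endoderm-derived organs. Wnt2 stood at 2.12, 0.363 and 1.85 FPKM in the omentum, was at 0.180 in MY 24h, and was listed at 0 in MY 0h and MY 7d. Wnt2b stood at 0.349, 0.0541 and 1.72 in the omentum and between 0.0962 and 0.109 in the mesentery. OM 24h was the lowest omental library for both. In all, 8 of the 22 expressed Wnt genes had their lowest omental value at 24 h, a share near the 38.2% of all expressed genes. All 9 fibroblast markers had theirs there too, but were highest in OM 7d, whereas Wnt2 was highest in OM 0h. Among other expressed markers, so did 6 of 6 for B cells, 6 of 6 for NK cells and 6 of 7 for T cells. The counts were 5 of 5 for mast cells, 4 of 4 for adipocytes, 3 of 4 for endothelial, 3 of 5 for mural and 3 of 6 for dendritic cells. None of the 10 mesothelial, 9 macrophage and 5 neutrophil markers did. The part of RNA from any of these cell types in the Wnt2 and Wnt2b values was not tested.

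The remaining 10 ligands never reached 1 FPKM. Among them the highest value was that of Wnt1 in OM 7d (0.660), followed by Wnt7b in OM 7d (0.394). Wnt10b had its maximum of 0.257 in OM 24h, and Wnt3 its maximum of 0.214 in OM 7d. Wnt3a, Wnt7a, Wnt8a, Wnt8b, Wnt9b and Wnt16 stayed at or below 0.0566 in every library. Summed over all 19 ligands, the FPKM was 15.4, 104.1 and 123.4 in the omentum, and 9.60, 17.6 and 9.41 in the mesentery.

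**Figure D3:**
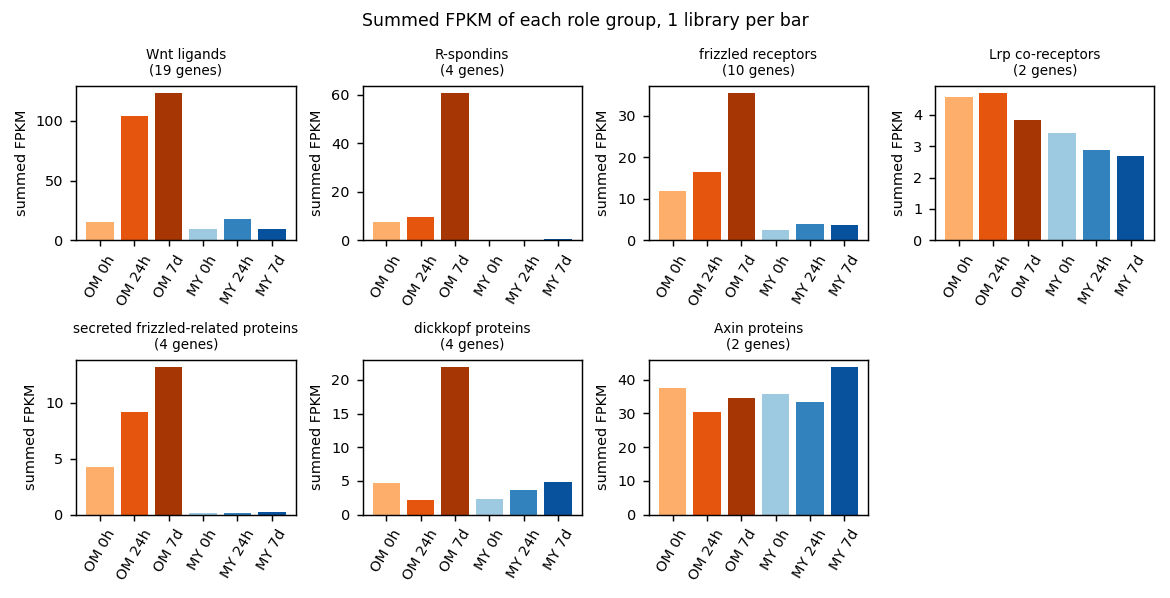
Summed FPKM of each role group (panels, each with its own axis from 0) in the 6 libraries, with 1 bar per library. The ligand sum reaches 104.1 and 123.4 in OM 24h and OM 7d, the R-spondin sum is highest in OM 7d (60.7), and the Lrp and Axin sums differ little between libraries.

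Rspo1 was the only R-spondin that reached 1 FPKM, and it had the highest single value of the secreted Wnt genes. R-spondin 1 amplifies Wnt signals through Lgr receptors and is known for its part in ovary development. Its FPKM was 7.23, 9.80 and 60.4 in the omentum. In the mesentery it was 0.102 in MY 0h and 0.173 in MY 7d, and it was listed at 0 in MY 24h. Every omental value was far above every mesenteric one. From OM 0h, Rspo1 differed by 0.39 at 24 h and by 2.90 at 7 d. Between OM 24h and OM 7d it differed by 2.51. The mesothelial marker sum was 1058 and 1083 in these libraries. Of the 10 markers, 7 were higher in OM 7d, among them Bnc1 (2.27 and 7.25) and Lrrn4 (12.6 and 35.1). The other 3 (Krt8, Krt18 and Krt19) were lower there, with Krt19 at 405.6 and 349.1. The fibroblast marker sum was 227.2 and 1237. The part of either cell type in the Rspo1 values was not tested. Rspo3, a stromal R-spondin, was at 0.388 in OM 0h and 0.257 in OM 7d and was listed at 0 in OM 24h. Rspo2 and Rspo4 were at most 0.168 in any library.

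The RefSeq promoter windows of GRCm38.p6, each 300 bases long and spanning a transcription start, covered 28 of the 45 genes. They are shown for Wnt6, Wnt4, Wnt9a and Rspo1, which were higher in OM 7d than in OM 0h and in every mesenteric library, and for Wnt11 as the ligand above 1 FPKM in all 6 libraries. They lie at chr1:74771642-74771941 (Wnt6), chr4:137277385-137277684 (Wnt4), chr11:59306680-59306979 (Wnt9a), chr4:124986180-124986479 (Rspo1) and chr7:98834862-98835161 (Wnt11, the upstream of 2 listed starts), each on the plus strand. Capitals mark the GC box (GGGCGG or CCGCCC), the core that TCF and LEF factors recognise (CTTTGA or TCAAAG) and the TATA box (TATAAA or TTTATA), searched on both strands.
Wnt6: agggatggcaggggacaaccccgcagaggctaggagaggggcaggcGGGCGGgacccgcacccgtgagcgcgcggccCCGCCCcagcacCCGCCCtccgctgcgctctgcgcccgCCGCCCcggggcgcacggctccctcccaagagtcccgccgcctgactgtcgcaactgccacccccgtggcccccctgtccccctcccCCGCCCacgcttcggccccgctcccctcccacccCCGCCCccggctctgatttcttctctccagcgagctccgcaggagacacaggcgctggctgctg
Wnt4: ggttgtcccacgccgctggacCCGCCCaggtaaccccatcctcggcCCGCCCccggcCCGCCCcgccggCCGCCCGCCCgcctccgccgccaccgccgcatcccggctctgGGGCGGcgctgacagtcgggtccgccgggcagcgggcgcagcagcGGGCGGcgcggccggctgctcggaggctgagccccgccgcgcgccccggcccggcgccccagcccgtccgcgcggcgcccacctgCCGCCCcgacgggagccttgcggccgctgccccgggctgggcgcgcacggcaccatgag
Wnt9a: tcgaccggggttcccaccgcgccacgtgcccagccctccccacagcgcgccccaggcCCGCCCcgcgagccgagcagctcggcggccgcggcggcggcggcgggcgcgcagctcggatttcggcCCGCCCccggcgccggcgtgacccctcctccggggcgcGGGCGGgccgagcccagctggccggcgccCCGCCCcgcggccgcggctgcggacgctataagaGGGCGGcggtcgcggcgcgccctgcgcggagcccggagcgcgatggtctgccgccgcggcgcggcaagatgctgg
Rspo1: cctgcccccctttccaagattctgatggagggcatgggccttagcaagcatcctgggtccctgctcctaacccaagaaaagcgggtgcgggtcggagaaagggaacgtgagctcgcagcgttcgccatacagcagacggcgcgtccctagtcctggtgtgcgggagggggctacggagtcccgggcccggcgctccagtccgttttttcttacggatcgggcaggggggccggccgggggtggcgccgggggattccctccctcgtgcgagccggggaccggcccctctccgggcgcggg
Wnt11: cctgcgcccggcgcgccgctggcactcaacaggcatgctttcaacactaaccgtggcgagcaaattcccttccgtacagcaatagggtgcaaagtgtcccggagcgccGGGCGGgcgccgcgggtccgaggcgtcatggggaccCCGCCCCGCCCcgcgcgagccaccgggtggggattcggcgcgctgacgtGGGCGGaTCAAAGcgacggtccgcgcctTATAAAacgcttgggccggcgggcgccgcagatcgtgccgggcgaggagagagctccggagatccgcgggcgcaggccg

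The windows of Wnt6, Wnt4 and Wnt9a had 6, 8 and 5 GC boxes and a GC content of 76.7%, 84.3% and 83.3%. That of Rspo1 had none of the 3 motifs, at a GC content of 69.0%. Wnt11 was the 1 window of the 5 with a TCF/LEF core and a TATA box, beside 4 GC boxes. The window at the downstream start of Wnt11, not shown, had 1 GC box and neither of the other motifs. A GC box was found in 35.7% of the 32851 windows in the table, and in 23 of the 31 windows of Wnt genes (21 of 28 genes). The median GC content was 52.7% over all windows and 70.0% over those of Wnt genes. The TCF/LEF core was in 16.0% of all windows and in 4 of the 31 windows of Wnt genes (Dkk1, Fzd1, Wnt5b and Wnt11). The TATA box was in 13.6% of all windows and in 4 of the 31 (Dkk1, Dkk2, Fzd1 and Wnt11). These are matches of letters and not shown binding sites.

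Every omental value was above every mesenteric one for each of the 5 expressed frizzled receptors, narrowly so for Fzd4 and Fzd7. Fzd1 and Fzd2 are closely related receptors that share ligands with Fzd7. Fzd1 stood at 3.37, 4.31 and 15.9 FPKM in the omentum, and at 0.512, 0.447 and 0.941 in the mesentery. Fzd6, a receptor of non-canonical and polarity signalling, was at 3.92, 2.86 and 4.26 in the omentum and between 0.263 and 0.278 in the mesentery, with no difference of 2-fold within a tissue. Fzd2 stood at 0.716, 0.805 and 3.95 in the omentum and at 0.0213 in MY 0h, and was listed at 0 in MY 24h and MY 7d. Fzd1 and Fzd2 were highest in OM 7d by a wide margin, and the omental values of Fzd6 were close together.

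Fzd7 was at 1.58, 6.00 and 6.59 FPKM in the omentum and at 0.878, 1.44 and 1.55 in the mesentery. OM 0h was next to the mesenteric values, and the injected omental libraries were above them. The difference from OM 0h was 1.44 at 24 h and 1.56 at 7 d. Fzd7 was the highest frizzled gene of each mesenteric library. Fzd4, which also serves as the receptor of norrin in vessels, was at 1.49, 1.46 and 2.51 in the omentum and at 0.237, 1.20 and 0.386 in the mesentery. Fzd5 and Fzd8 were at most 0.896 and 0.649, both in OM 7d, and Fzd3, Fzd9 and Fzd10 were at most 0.421.

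Lrp6 and Axin1, the general parts of the pathway, were nearly level. Lrp6 was at 3.60, 3.82 and 3.21 FPKM in the omentum and at 2.85, 2.43 and 2.35 in the mesentery. Each omental value of Lrp6 was above each mesenteric one, by less than 2-fold. Lrp5 was at 0.347 to 0.964. Axin1 was at 37.2, 29.8 and 32.3 in the omentum and at 34.3, 32.9 and 43.1 in the mesentery, and was the highest of the 45 genes in 4 of the 6 libraries. The exceptions were OM 24h, where Wnt10a was higher, and OM 7d, where Rspo1 and Wnt6 were higher.

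Axin2, a feedback inhibitor that beta-catenin itself induces, was low. Its FPKM was 0.365, 0.558 and 2.26 in the omentum and 1.43, 0.560 and 0.521 in the mesentery. OM 7d was the highest and OM 0h the lowest of the 6. The difference from the naive library at 7 d was 1.26 in the omentum and -0.68 in the mesentery. At 24 h the omental difference was 0.19 and the mesenteric one -0.64.

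Sfrp2 and Sfrp4 had higher values in every omental than in every mesenteric library, with different time courses. Sfrp4 stood at 1.72, 8.81 and 3.96 FPKM in the omentum and at 0.0175 in MY 0h, and was listed at 0 in MY 24h and MY 7d. Sfrp2 stood at 1.995, 0.374 and 8.25 in the omentum and between 0.0856 and 0.178 in the mesentery. Sfrp4 was therefore highest where Sfrp2 was lowest among the omental libraries. Their differences from OM 0h were 1.85 and -1.12 at 24 h and 0.87 and 1.63 at 7 d. Sfrp2, a product of fibroblasts in many tissues, had the same order of the omental libraries as all 9 fibroblast markers, and Sfrp4 did not. Dkk2, Dkk3, Fzd4, Fzd6 and Wnt2b had this order too. Of all expressed genes, 38.2% had their lowest omental value at 24 h. The part of fibroblast RNA in the Sfrp2 values was not tested. Sfrp1 was at 0.510 in OM 0h and 0.648 in OM 7d and was listed at 0 in OM 24h. Sfrp5 was measured in OM 7d (0.310) and listed at 0 in the other 5 libraries.

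Dkk3, which despite its name does not bind Lrp co-receptors in the way Dkk1 does, was at 4.42, 1.88 and 21.4 FPKM in the omentum and at 1.76, 2.17 and 3.96 in the mesentery. OM 7d stood alone, and the remaining values of the tissues overlapped. The step from OM 24h to OM 7d was 2.96, the largest between these libraries among the expressed Wnt genes on the log2(FPKM + 1) scale. As ratios of FPKM, Wnt2b (31.7) and Sfrp2 (22.1), which were lower in OM 24h, exceeded Dkk3 (11.4). Dkk2 was the 1 expressed Wnt gene with its highest value in MY 24h, at 1.52, against 0.526 in MY 0h, 0.803 in MY 7d and 0.249 to 0.437 in the omentum. Dkk1 was measured in MY 0h (0.0363) and listed at 0 in the other 5 libraries, and Dkk4 was listed at 0 in all 6.

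**Figure D4:**
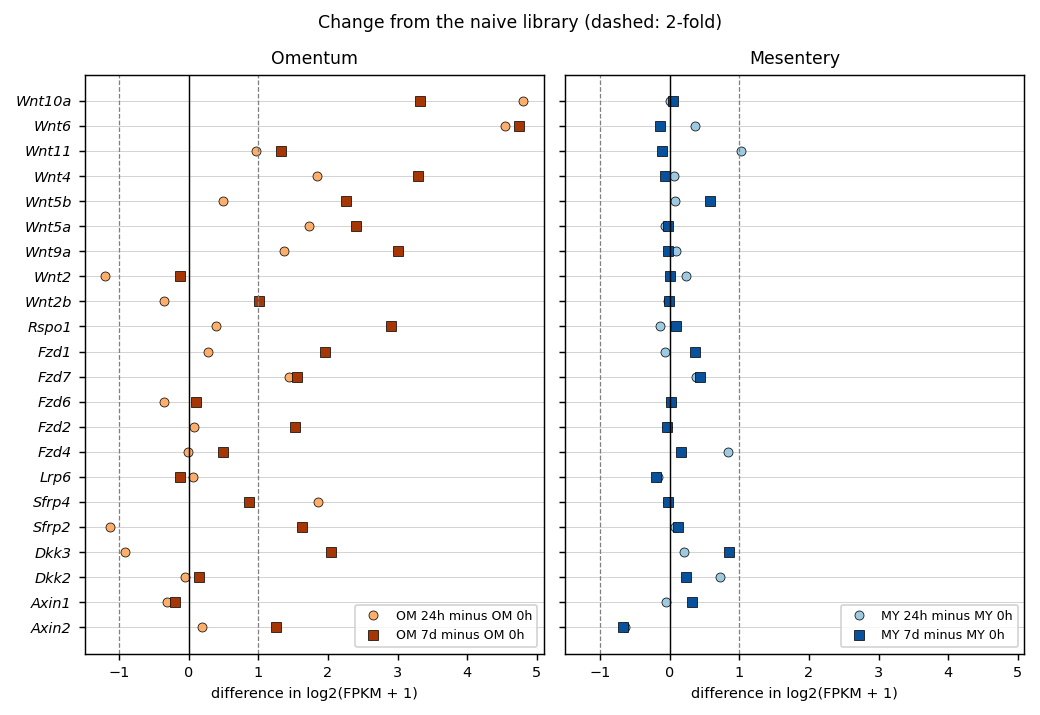
Difference from the naive library of the same tissue, in log2(FPKM + 1), for the 22 expressed Wnt genes in the omentum (left) and the mesentery (right). Circles are 24h, squares 7d, and dashed lines mark a 2-fold difference. In the mesentery 1 point (Wnt11 at 24 h, 1.03) passes a dashed line, and in the omentum Wnt6 and Wnt10a reach 4.74 and 4.80.

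**Figure D5:**
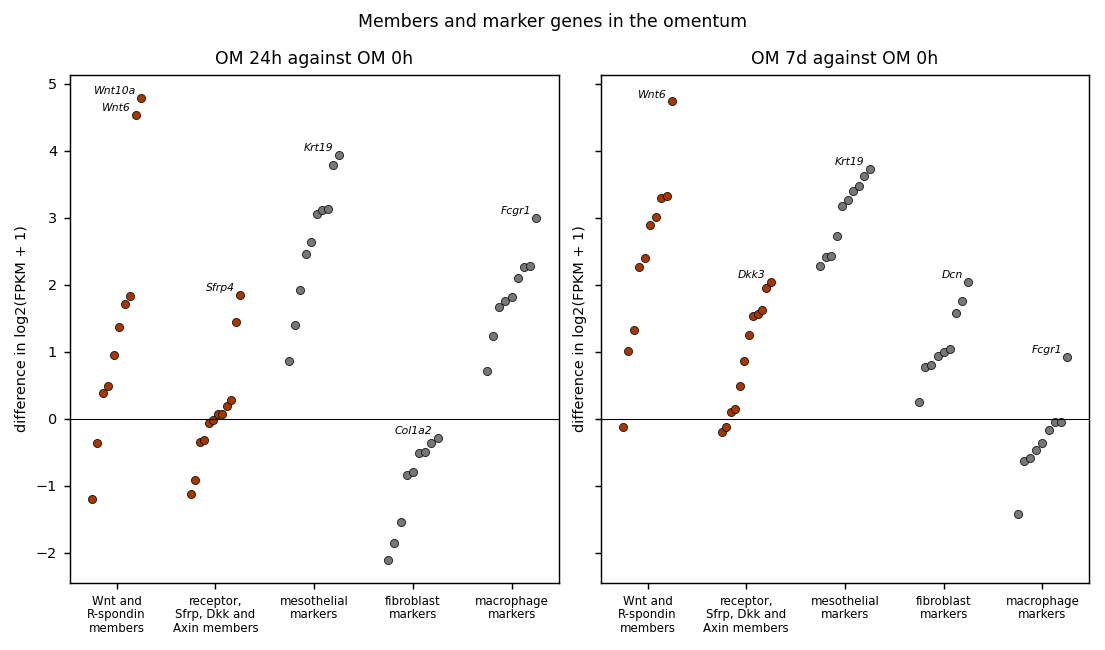
Difference of OM 24h (left) and OM 7d (right) from OM 0h in log2(FPKM + 1), for the expressed Wnt genes (red) and for the marker genes of mesothelial cells, fibroblasts and macrophages (grey), with 1 point per gene. At 24 h the mesothelial points lie above 0 and the fibroblast points below it. At 7 d both sets lie above 0, and Wnt6 (4.74) is the highest point.

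The rest of the pathway was read from lists of genes by role. Of 3 genes that act on the secreted ligand, Wls, the carrier of Wnt proteins to the cell surface, was at 28.1, 61.1 and 66.7 FPKM in the omentum and at 13.9 to 17.8 in the mesentery. Every omental value was above every mesenteric one. Porcn, which attaches the lipid, was at 0.199, 1.57 and 2.66 in the omentum and at most 0.687 in the mesentery. Notum, an enzyme that removes that lipid and is itself a beta-catenin target, was at 0.0223, 0.522 and 9.57 in the omentum and at most 0.193 in the mesentery. All 3 genes were at least 2-fold higher in OM 7d than in OM 0h, against 11.0% of all expressed genes. Porcn and Notum were below 1 FPKM in OM 0h, so they could differ from it by 2-fold in 1 direction. Notum reached 1 FPKM in OM 7d alone.

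Of 12 further receptors and co-receptors, 11 were expressed. In OM 7d against OM 0h, 6 were at least 2-fold higher and 0 lower, against 11.0% and 1.96% of all expressed genes. Of the 6, Ror1, Lgr4, Lgr5 and Lgr6 were below 1 FPKM in OM 0h, so they could differ from it by 2-fold in 1 direction. Lgr5 and Lgr6 reached 1 FPKM in OM 7d alone. Lgr4, an R-spondin receptor, was at 0.406, 9.43 and 14.6 FPKM in the omentum and at most 0.218 in the mesentery. Ptk7, a co-receptor of planar polarity signalling, was at 1.03, 7.55 and 12.02 in the omentum and at most 0.195 in the mesentery. Both had the time course of Wnt4 and Wnt5a. Ryk, a kinase-like Wnt receptor, was at 8.04, 7.78 and 15.2 in the omentum and at 1.26 to 1.70 in the mesentery. Of 8 other secreted antagonists, Dkkl1 was at 29.5, 6.95 and 21.6 in the omentum and at 4.29 to 8.57 in the mesentery, and Igfbp4 was at 89.2, 133 and 222 in the omentum and at 96.4 to 268 in the mesentery, with overlapping tissues for both.

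Of 23 cytoplasmic genes measured, 21 were expressed. In OM 7d against OM 0h, 4 were at least 2-fold higher and 0 lower, against 11.0% and 1.96% of all expressed genes. Of the 4, Nkd1, Dact1 and Vangl1 were below 1 FPKM in OM 0h, so they could differ from it by 2-fold in 1 direction. Nkd1 and Dact1 reached 1 FPKM in OM 7d alone. In OM 24h against OM 0h, 2 were higher and 1 lower, against 11.9% and 6.45%. Nkd1, a feedback inhibitor, was at 0.557, 0.139 and 5.65 FPKM in the omentum and at most 0.148 in the mesentery. Dvl1, an adaptor downstream of frizzled, was at 11.0, 6.16 and 10.8 in the omentum and at 23.1, 31.7 and 10.1 in the mesentery. Ctnnbip1, an inhibitor of the contact between beta-catenin and TCF factors, was at 5.64, 17.4 and 9.74 in the omentum and at 22.1, 73.1 and 22.8 in the mesentery, with each tissue highest at 24 h.

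Several nuclear genes of the pathway were lower in the naive omentum than in the naive mesentery. Of 13 genes, 12 were expressed. Of these, 4 had values in OM 0h at least 2-fold below those of MY 0h (Tcf7, Lef1, Tcf7l1 and Tcf7l2) and 0 were higher. The shares of all expressed genes were 8.05% and 8.18%. Lef1 was at 4.06, 0.374 and 5.37 FPKM in the omentum and at 99.9, 67.0 and 145 in the mesentery. Tcf7 was at 21.7, 5.30 and 22.7 in the omentum and at 221, 163 and 296 in the mesentery. Both factors are known from T cells, and the mean log2(FPKM + 1) of 7 T cell markers, Tcf7 among them, was 2.28 to 4.15 over the omental and 6.46 to 7.46 over the mesenteric libraries. The part of T cell RNA in the Lef1 and Tcf7 values was not tested. Tle3, a co-repressor, was at 59.0, 13.2 and 20.5 in the omentum and at 40.4, 16.7 and 18.2 in the mesentery, highest in the naive library of each tissue.

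Of 15 known beta-catenin targets, 7 were at least 2-fold higher in OM 7d than in OM 0h and 0 were lower. The shares of all expressed genes were 11.0% and 1.96%. The 7 were Axin2, Nkd1, Notum, Sp5, Rnf43, Lgr5 and Jag1. Of these, Nkd1, Notum, Sp5 and Lgr5 reached 1 FPKM in OM 7d alone. Axin2 and Jag1 were also below 1 FPKM in OM 0h (0.365 and 0.486). A gene below 1 FPKM there cannot be 2-fold lower in OM 7d, so all but Rnf43 could differ in 1 direction. The count is a description. In OM 24h against OM 0h, 1 (Jag1) was higher and 4 (Lef1, Tcf7, Myc and Ccnd2) were lower, against 11.9% and 6.45%. Lymphocyte markers were lower in the same comparison, against 6.45% of all expressed genes. They were 6 of 7 for T cells (median -1.85), 6 of 6 for B cells (median -2.01) and 6 of 6 for NK cells (median -3.27). Tcf7 is on both the T cell and the target list, and -1.85 is its own difference. The part of lymphocyte RNA in the values of these targets was not tested. In the mesentery, 0 targets were higher or lower at 24 h, against 2.80% and 1.52%. At 7 d, 0 were higher and 1 (Mmp7) was lower, against 0.498% and 2.29%. The list shares Axin2 with the 45 Wnt genes, and Notum, Nkd1, Lgr5, Rnf43, Znrf3, Lef1 and Tcf7 with the lists above.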

How the data were processed

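Bulk RNA sequencing of sorted macrophages was analysed in 6 libraries, 1 per tissue and time point. Per the labels and the methods, read quality was assessed by the authors in FastQC 0.11.4. STAR 2.4.2a placed the reads on the mm9 build with UCSC gene models, and Cufflinks gave the FPKM that the authors deposited for each gene symbol. Column sums were 526887 to 713863. Without read counts a count model was not run. Log2(FPKM + 1) differences were taken in pandas 2.3.3 and numpy 2.4.6 (Python 3.11.15), with plots in matplotlib 3.10.9. Differences of 2-fold or more were counted over genes reaching 1 FPKM in any library. With this pseudocount no gene below that level can reach 2-fold. With 1 library per group there is no test. Expressed Wnt genes were named with their values. Of each pathway list, the 3 genes with the largest difference over the 7 comparisons were named among those reaching 5 FPKM. Other named genes were chosen after their values were seen. The Wnt genes, pathway lists and marker lists were chosen with earlier results of these data known. Of the mesothelial, macrophage, neutrophil and T cell lists, Muc16, Adgre1, Ly6g and Trac were not matched in the table. The counting and the depth estimate were tested on simulated data. Positions come from NCBIM37 with the GENCODE M1 annotation, and promoter sequences from RefSeq on GRCm38.p6. Alternatives were pseudocounts of 0.1 and 5, other filters, and rescaled libraries.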

Additional observations from a re-analysis of the deposited data

Results flagged for a closer look

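At 7 d, Axin2 was above its naive library in the omentum (1.26 on the log2(FPKM + 1) scale) and below it in the mesentery (-0.68). It was the 1 expressed Wnt gene of 22 that differed by at least 1.5-fold in opposite directions at the same time. The difference between the tissues was not tested, since each condition had 1 library. Its FPKM was at most 2.26, so both values rest on a low gene.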

How the results depend on the processing

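No paired analysis was possible because there are no replicate numbers to pair. In place of a replicate spread, the tolerance was 1.5 times for a count and 0.58 for a log2 difference. Of 51 recomputed counts of Wnt genes at least 2-fold apart, 35 stayed within that range. Dropping the filter on low values or rescaling the libraries, by the median ratio or to a common sum, moved no count beyond it. The pseudocount did. OM 0h against MY 0h went from 9 genes to 15 with a pseudocount of 0.1 and to 1 with 5, MY 24h against MY 0h from 1 to 6 and 0, and MY 7d against MY 0h from 0 to 3 with 0.1. With 5, OM 24h against OM 0h went from 9 to 3, OM 24h against MY 24h from 11 to 6, OM 7d against MY 7d from 19 to 11, and the count between every omental and every mesenteric library from 5 to 1. When an FPKM of at least 1 was required in every library, which removes genes near 0 in the mesentery, 2 of 15 remained for OM 7d against OM 0h and 2 of 19 for OM 7d against MY 7d, and 0 remained for the naive tissues, for OM 24h against either OM 0h or MY 24h, and for all libraries together. Without the libraries at 0h, the last count was 10. Among recomputed log2 differences, 483 stayed within 0.58 and 133 moved, and 0 of those past 2-fold changed sign. Rescaling to a common sum moved the median of all expressed genes to -0.19 for OM 0h against MY 0h, -0.17 for OM 24h against OM 0h, 0.12 for OM 7d against OM 0h and -0.27 for OM 24h against MY 24h. It moved the share of all differing genes that were higher from 50.4% to 38.6% in the first, from 64.9% to 50.4% in the second, from 57.6% to 41.2% in the last and from 64.8% to 49.4% for MY 24h against MY 0h. The Wnt genes higher and lower became 10 and 2, 7 and 3, and 11 and 1 in the first, second and last. The comparison of Wnt6 and Wnt10a with Krt19 under a pseudocount of 5 was chosen after seeing the data. The number of reads behind each value is not known, which limits all values near 0.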
